A study of Sus scrofa with 6 samples.

Results

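RAB small GTPases were examined in the mRNA of porcine 2-cell embryos with and without knockdown of SIN3A. The members were all genes of the deposited table whose name was RAB, a number and at most 1 letter, which gave 53 of 17678 genes. Of these, 38 had a mean value of at least 10 over the 6 libraries and were tested, and 15 did not. A further 3575 genes of the table had no name, so a RAB gene among them was not counted as a member.

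Oocytes matured to metaphase II were injected with siRNAs against SIN3A, the scaffold protein of a histone deacetylase complex, or with a nonspecific siRNA, and then activated parthenogenetically, so that every embryo in both groups lacked a paternal genome. The embryos were collected at the 2-cell stage, 32 h after activation. The control group (NC) and the knockdown group (KD) had 3 libraries each, made from 20 pooled embryos per replicate. The comparison asked how loss of SIN3A mRNA changed the transcripts of these embryos. Each p-value is for the difference between the groups, with the 3 pools of each group as replicates. In the limma fit, the spread between pools was drawn in part from all genes tested.

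RAB proteins are molecular switches that mark membranes. With GTP bound they sit on a membrane through lipid groups attached to cysteines near their end and recruit effectors that move, tether and fuse vesicles. Guanine nucleotide exchange factors (GEFs) switch them on, GTPase-activating proteins (GAPs) switch them off, and GDP dissociation inhibitors (GDIs) carry the inactive form in the cytosol. Oocytes store most of their transcripts before fertilization or activation, and an embryo at this stage still relies largely on them.

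The cysteines at the end of the protein are a feature of the family that the choice by name did not use. The last 24 coding bases before the stop codon were read from the RefSeq annotation of Sscrofa11.1 for all 53 members, matched by symbol, so they describe the RefSeq genes and do not check which gene each identifier of the table measures. At least 1 cysteine codon was found in 52 of them and at least 2 in 46, and 15 ended in 2 cysteine codons. RAB37 was the member without one in the mRNA read, the longest of its 3 RefSeq mRNAs. For every member only the longest RefSeq mRNA was read. The sequences below are those of the 4 members with an unadjusted p below 0.05 between the groups, of the closest relatives of RAB2A and RAB11A, and of RAB8A, which has a single cysteine codon. They are written 5′ to 3′ on the coding strand, with the cysteine codons in capitals.
RAB2A (chr4:72801850-72801873, minus strand): cagcaggccggcggaggcTGCTGT
RAB2B (chr7:77715238-77715261, plus strand): atgggatctgactctggcTGCTGC
RAB11A (chr1:163887715-163887738, plus strand): aaggtgcagTGCTGTcagaacata
RAB11B (chr2:70885364-70885387, minus strand): aagctgcagTGCTGCcagaacctg
RAB32 (chr1:19076304-19076327, minus strand): aaagagaacaagtcccagTGTTGC
RAB24 (chr2:80648366-80648389, plus strand): tacttctacagcTGTTGTcaccac
RAB8A (chr2:61431961-61431984, minus strand): agctttttccgaTGTgttcttctg
RAB2A, RAB2B and RAB32 ended in a pair of cysteine codons. In RAB11A, RAB11B and RAB24 the pair was followed by further codons. Members could share reads only where their transcripts were alike, and no stretch of 31 bases was shared between the RefSeq mRNAs of any 2 of the 53 members. Pseudogenes were not examined.

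All values are the normalized abundances of the deposited table, a signal per gene that the authors had already scaled between libraries. SIN3A, the targeted gene, was 37361, 33964 and 32404 in the NC libraries and 3271, 1079 and 4173 in the KD libraries, which was 8.22% of the NC mean (log2 fold change −3.81, limma adjusted p = 8.4e-06). The NC libraries held an estimated 7780000 to 13000000 reads and the KD libraries 10200000 to 15800000, and the Spearman correlation between libraries was 0.982 to 0.988. The identity of the samples was checked on 10 measured oocyte and embryo genes, whose summed value was 91737 to 101197 in NC and 88602 to 109371 in KD. Of 10 measured genes of cumulus and granulosa cells, which surround the oocyte, 2 had a mean of at least 10, and the sum of all 10 was 38.1 to 42.5 in NC and 32.2 to 73.5 in KD. AMHR2 was listed at 0 in every NC library and PTX3 in every KD library. In KD replicate 3, STAR, CYP11A1, FOXL2 and CYP19A1 were 23.4, 14.2, 13.1 and 10.7. Their highest NC values were 17.8, 5.22, 2.53 and 3.55. INHBA (7.69) and PTX3 were lower in KD replicate 3 than in any NC library. The part of such cells in the results was not tested.

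The RAB family took nearly the same share of each library. Its members held 0.319% to 0.324% of the summed value of each library. The median log2 fold change (KD over NC, on the log2(value + 1) scale) over the 38 tested members was −0.0016, beside 0.0026 over all 11986 genes tested, with 18 members above 0 and 20 below. No member was called at an adjusted p below 0.05 (limma, Benjamini-Hochberg over all genes tested), where 0.159% of all genes were called, and the lowest adjusted p of a member was 0.467. At an unadjusted p below 0.05 there were 4 of 38 members (10.5%), beside 4.61% of all genes. RAB2A was higher in KD, and RAB32, RAB24 and RAB11A were lower. RAB32 is counted by its name in the deposited table, while the reference name table gives its identifier as ADGB. RAB24 passed the filter through its NC values alone, since its KD mean lies below 10, and the count without it was 3. The NC and KD values of 6 of 38 members (15.8%), RAB24 and RAB32 among them, did not overlap, beside 9.79% of all genes.

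The data bounded the size of any change for most members. The 95% confidence interval of the log2 fold change lay within ±1 for 35 of the 38 members and within ±0.5 for 27. Replicates were close together, with a median coefficient of variation in NC of 9.84% over the members and 13.1% over all genes. It ran from 1.16% for RAB12 to 42.0% for RAB27B.

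**Figure D1:**
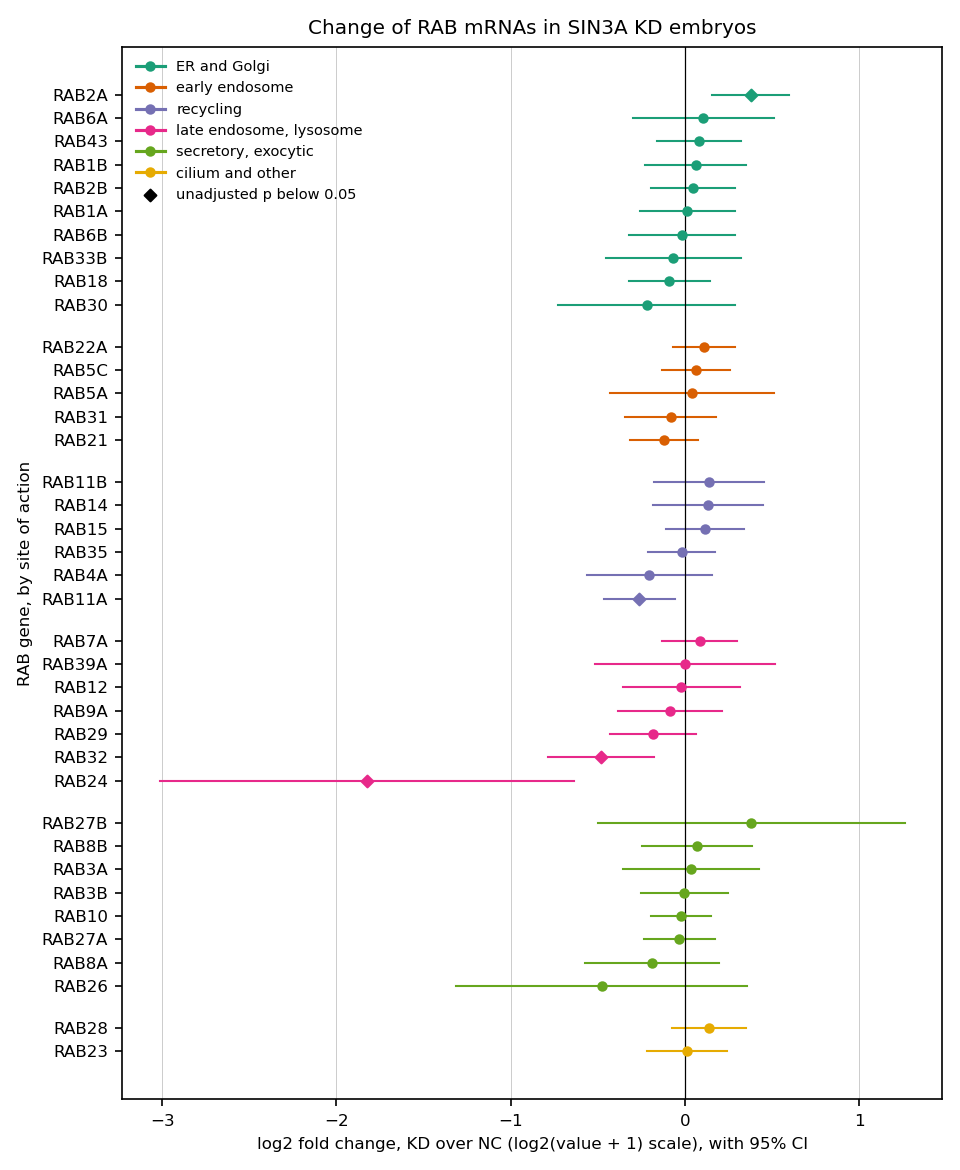
Log2 fold change (KD over NC, log2(value + 1) scale) of the 38 tested RAB genes on the x axis, with bars for the 95% confidence interval, grouped and coloured by the membrane on which the protein acts. Diamonds mark the 4 genes with an unadjusted p below 0.05, RAB2A at 0.38 and RAB11A, RAB32 and RAB24 at −0.26, −0.48 and −1.83, and the other intervals cross 0.

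The levels of the family in NC embryos were compared per length, as normalized abundance per kb of the longest RefSeq mRNA of each gene. The 34 tested members whose RefSeq mRNA includes untranslated regions spanned 602-fold. RAB5C, which acts in the fusion of early endosomes, was highest at 1718 ± 127 per kb (SD, n = 3). RAB10, which serves exocytosis and the basolateral route, followed at 977 ± 27.5. With these lengths, the ranges of these genes over the NC libraries did not overlap each other or that of the next gene. The order depends on the length used. With the median length of the RefSeq mRNAs, RAB28 took the place of RAB22A among the 5 highest of all members.

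RAB22A and RAB21, both of the early endosome, stood at 701 ± 51.0 and 654 ± 60.1 per kb. RAB28, a RAB of the cilium, and RAB35, which acts in fast recycling, stood at 634 ± 45.3 and 585 ± 18.5. Neighbours among these 4 genes overlapped in their NC ranges, and their order is not resolved. At the other end were RAB26 and RAB27B, both of secretory vesicles, at 17.1 ± 5.92 and 2.85 ± 1.20 per kb, with RAB30 of the Golgi at 9.99 ± 1.74. In all, 20 of the 33 pairs of neighbours in the order overlapped and 13 were apart.

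The RefSeq mRNAs of RAB11A, RAB1A, RAB1B and RAB32 hold the coding sequence alone, so their values per kb (5472, 1538, 505 and 467) are divided by too short a length and cannot be ranked with the rest. The 5 highest members (RAB11A, RAB5C, RAB1A, RAB10 and RAB22A) held 60.0% ± 1.37 (SD, n = 3) of the summed level per kb of all 53 members. Without the 4 genes, a choice made after seeing the data, the 5 highest were RAB5C, RAB10, RAB22A, RAB21 and RAB28 and held 50.1% ± 0.690. Among 9598 tested genes whose RefSeq mRNA includes untranslated regions, the 34 members had a median percentile of 70.0, with RAB5C at 97.9 and RAB27B at 3.74. Members below the filter were not ranked.

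**Figure D2:**
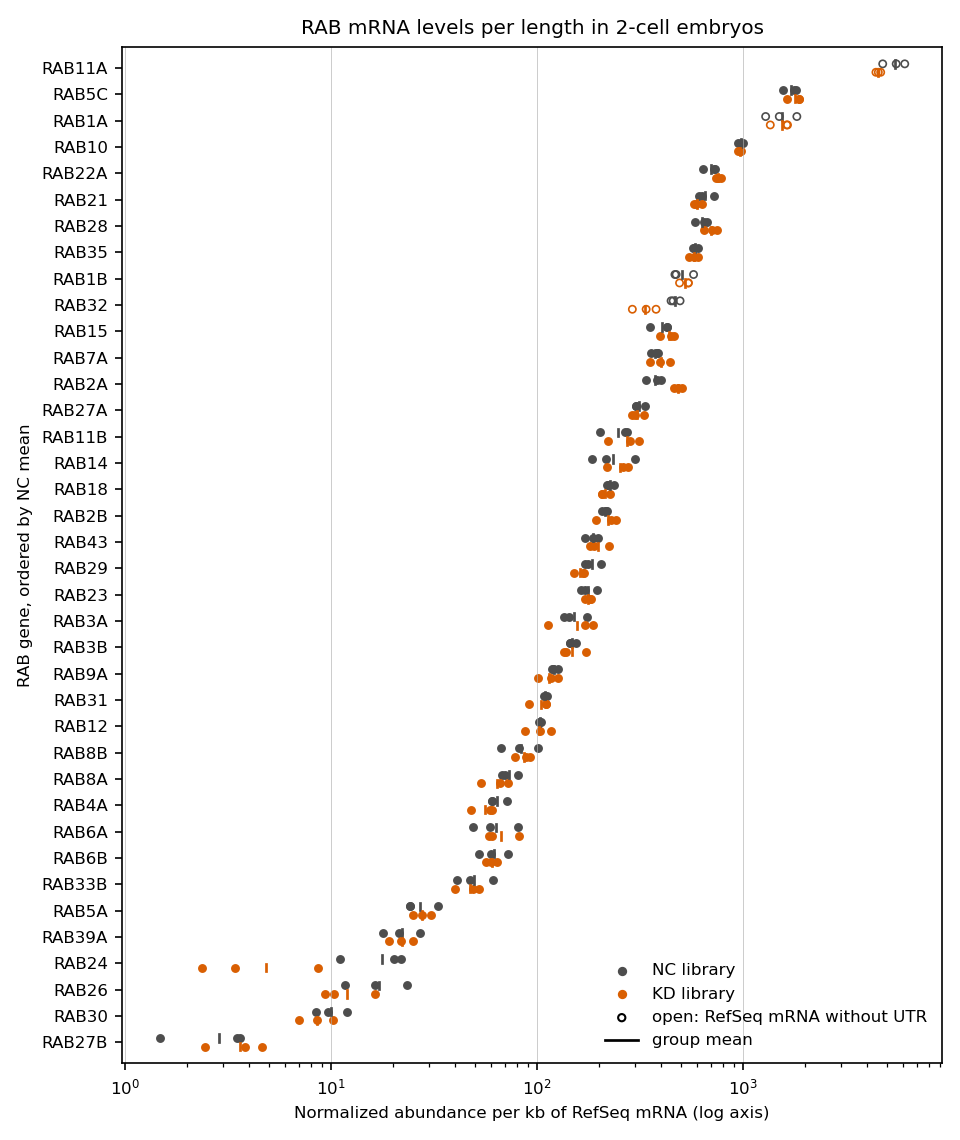
Normalized abundance per kb of RefSeq mRNA (log axis) of the 38 tested RAB genes in the 3 NC libraries (grey) and 3 KD libraries (orange), with a tick at each group mean. RAB5C has the highest mean of the filled points at 1718 per kb in NC and RAB27B the lowest at 2.85, and open points mark the 4 genes whose RefSeq mRNA has no untranslated region.

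Among the 10 tested RABs of the endoplasmic reticulum and Golgi, RAB2A had the highest log2 fold change. RAB2A, which acts between the Golgi and the endoplasmic reticulum and on late endosomes, was 845, 745 and 882 in the NC libraries and 1019, 1066 and 1124 in the KD libraries. All KD values lay above all NC values, with means of 824 ± 71.2 in NC and 1070 ± 52.4 in KD (SD, n = 3), or 130% of NC. Its log2 fold change was 0.38 (SE 0.10, 95% confidence interval 0.16 to 0.60, unadjusted limma p = 0.0022, adjusted p = 0.467; exact two-sided permutation p = 0.1). It did not pass the test over all genes, and 0.1 is the smallest exact p that 3 libraries against 3 allow.

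RAB1A and RAB1B, which carry traffic from the endoplasmic reticulum to the Golgi, did not move beyond their spread. RAB1A was 1128, 796 and 927 in NC and 1008, 839 and 1016 in KD (log2 fold change 0.01, 95% confidence interval −0.26 to 0.28). RAB1B was 287, 283 and 349 in NC and 329, 329 and 298 in KD (0.06, −0.23 to 0.35). RAB30 was 86.7, 61.6 and 70.6 in NC and 62.3, 51.2 and 74.3 in KD, with overlapping groups (−0.22, −0.73 to 0.29), and its locus overlaps PRCP on the same strand. The median log2 fold change of the group was 0.03, and the other 6 genes lay between −0.09 and 0.11.

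The 5 tested RABs of the early endosome included the most abundant members, and none had an unadjusted p below 0.05, beside 4.61% of all genes. RAB22A was 5190, 5871 and 5932 in NC and 6292, 6106 and 5938 in KD. Its highest NC value and lowest KD value nearly met, although the groups did not overlap (log2 fold change 0.11, 95% confidence interval −0.07 to 0.29). RAB5C was 2622, 3013 and 2960 in NC and 3131, 3107 and 2736 in KD (0.06, −0.13 to 0.26). RAB21, which binds integrins during their uptake, was 3002, 2627 and 2528 in NC and 2624, 2471 and 2396 in KD (−0.12, −0.32 to 0.08). Both genes overlapped between groups, and the median of the 5 genes was 0.04.

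Of the 6 tested RABs of recycling endosomes, RAB11A had the lowest log2 fold change. RAB11A, which directs recycling to the cell surface, was 3972, 3610 and 3105 in NC and 2956, 2878 and 3036 in KD. The KD libraries were close together and all below the NC libraries, at 83.0% of the NC mean (3563 ± 436 against 2957 ± 78.6, SD, n = 3). The log2 fold change was −0.26 (SE 0.10, 95% confidence interval −0.47 to −0.06, unadjusted limma p = 0.0147, adjusted p = 0.922; exact permutation p = 0.1). Without NC replicate 1 its unadjusted limma p was no longer below 0.05.

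The paralog RAB11B was 394, 536 and 520 in NC and 555, 613 and 430 in KD, with overlapping groups (log2 fold change 0.14, 95% confidence interval −0.18 to 0.46). RAB14, which acts between the Golgi and endosomes, was 1116, 688 and 809 in NC and 813, 975 and 1032 in KD (0.13, −0.18 to 0.45). RAB35 was 1706, 1606 and 1632 in NC and 1711, 1630 and 1543 in KD (−0.02, −0.21 to 0.17). These 3 genes overlapped between the groups.

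Of the 7 tested RABs of late endosomes, lysosomes and autophagy, RAB32, RAB24 and RAB29 did not overlap between the groups (3 of 7, 42.9%, beside 9.79% of all genes), with KD below. The 7 genes had a median log2 fold change of −0.09, with 6 of 7 below 0, beside 5922 of all 11986 genes tested. Of these 6, RAB39A (−0.0004) and RAB12 (−0.02) lay very near 0. The counts of 3 of 7 and 6 of 7 both include RAB24, which passed the filter through its NC values alone. The direction of RAB24 was therefore not independent of the filter. Both counts also include RAB32, although which gene its identifier measures was not settled, as described below. RAB32, which acts on lysosome-related organelles and mitochondria, was 312, 337 and 305 in NC and 258, 198 and 231 in KD. The KD mean was 71.9% of the NC mean (318 ± 16.9 against 229 ± 30.04, SD, n = 3). The log2 fold change was −0.48 (SE 0.14, 95% confidence interval −0.78 to −0.18, unadjusted limma p = 0.0040, adjusted p = 0.592; exact permutation p = 0.1). The deposited table names this identifier, ENSSSCG00000004114, RAB32, while the reference name table gives it as ADGB, the next gene on the same strand of chromosome 1. RefSeq places ADGB at chr1:18870880-19030983 and RAB32 at chr1:19076301-19097647, without overlap, and which of these was measured was not settled here.

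RAB24, which has been linked to autophagy, had the lowest log2 fold change of the 38 tested members. It passed the filter through its NC values alone, since its KD mean lies below 10. It was 27.5, 13.8 and 25.3 in NC and 2.96, 10.8 and 4.30 in KD. The groups did not overlap, but NC replicate 2 and KD replicate 2 lay close together. The mean was 22.2 ± 7.35 in NC and 6.03 ± 4.22 in KD (SD, n = 3), with a log2 fold change of −1.83 (SE 0.56, 95% confidence interval −3.01 to −0.64, unadjusted limma p = 0.0048, adjusted p = 0.644; exact permutation p = 0.1). The log2 fold change was −1.01 with a pseudocount of 10 and −2.02 with 0.1, in place of 1. The value rests on an estimated 9.42 to 29.6 reads in NC and 3.04 to 15.1 in KD, which overlap before scaling for depth. RAB24 also overlaps NSD1 on the opposite strand, and whether the libraries kept strand is not given in the sources used here, so reads over the overlap cannot be told apart. In all, 12 of the 38 tested members overlap another RefSeq gene, 10 of them on the opposite strand. NSD1 was 1672 ± 136 in NC and 1798 ± 65.8 in KD (log2 fold change 0.11, limma adjusted p = 0.997).

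RAB29, a RAB of the Golgi and stressed lysosomes, was 553, 571 and 662 in NC and 487, 547 and 536 in KD (log2 fold change −0.18, 95% confidence interval −0.43 to 0.07). All KD values lay just below the NC values. RAB7A, the main RAB of late endosomes, was 1594 ± 66.3 in NC and 1696 ± 195 in KD (SD, n = 3), with a log2 fold change of 0.08 and overlapping groups. The lowest NC value of RAB29 differed from the highest KD value by less than the SD of either group.

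**Figure D3:**
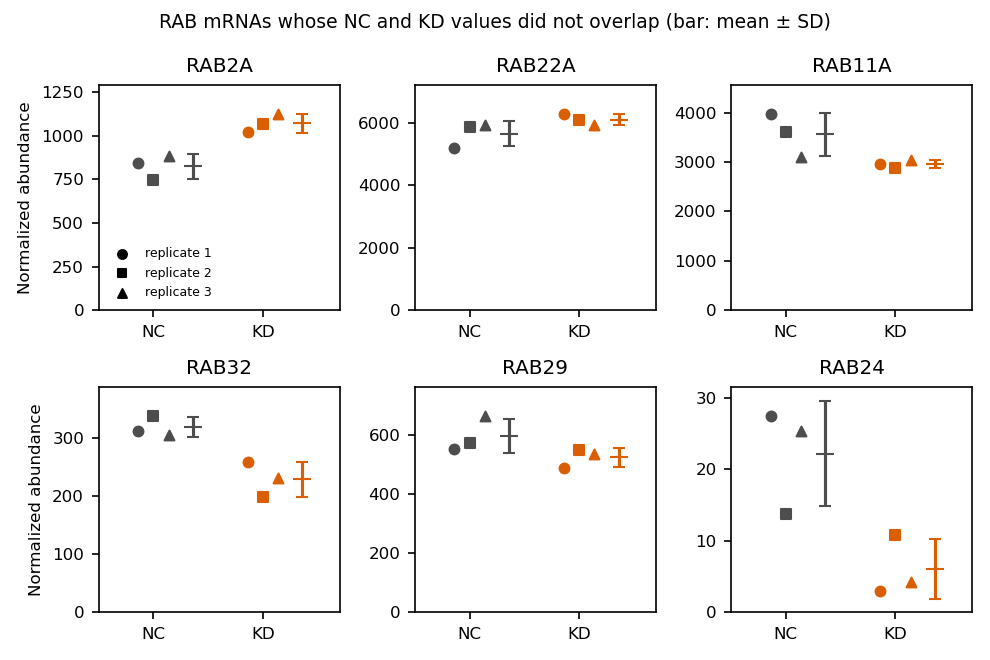
Normalized abundance of the 6 tested RAB genes whose NC (grey) and KD (orange) values did not overlap, with a point per library, a symbol per replicate number and a bar for the mean ± SD of 3 libraries. The mean of RAB2A is 824 in NC and 1070 in KD and that of RAB24 22.2 and 6.03, while in RAB22A and RAB29 the groups nearly meet.

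No RAB among the 8 tested of secretory and exocytic vesicles separated the groups (0 of 8, beside 9.79% of all genes). RAB10 was 3578, 3502 and 3383 in NC and 3373, 3459 and 3476 in KD (log2 fold change −0.02, 95% confidence interval −0.19 to 0.15), which bounds its change more tightly than that of most members. RAB27B was 11.2, 26.7 and 27.5 in NC and 35.3, 18.6 and 29.0 in KD (0.38, −0.50 to 1.26). RAB26 was 18.8, 26.4 and 37.8 in NC and 16.6, 15.1 and 26.5 in KD (−0.48, −1.31 to 0.36). At such low values neither a change nor its absence was detectable. Of the 2 tested RABs of the cilium, RAB28 was 1236, 1191 and 1074 in NC and 1190, 1371 and 1297 in KD (0.14, −0.07 to 0.35), and RAB23, which acts in Hedgehog signalling, had a log2 fold change of 0.01.

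The 15 members below the filter ran from 0 to 19.8 in single libraries, with means from 0.482 to 9.76. They were RAB17, RAB19, RAB20, RAB25, RAB33A, RAB34, RAB36, RAB37, RAB38, RAB39B, RAB3D, RAB40B, RAB44, RAB7B and RAB9B. Several are known from other tissues, such as RAB25 and RAB17 of epithelia and RAB38 of pigment cells. Of these, 10 had a value above 0 in every library and 5 were listed at 0 in at least 1. RAB24 at a mean of 14.1 was the nearest above the filter and RAB39B at 9.76 the nearest below.

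Where 2 paralogs of a subfamily were tested, the share of the A paralog in their summed level per kb was followed in 8 pairs. Some pairs were nearly all 1 gene in NC, with RAB27A at 99.1% of RAB27A and RAB27B, and RAB5A at 1.57% of RAB5A and RAB5C. RAB11A was at 95.6% of RAB11A and RAB11B, but its RefSeq mRNA lacks untranslated regions, so this share is too high by an unknown amount. RAB3A at 50.3% and RAB6A at 50.2% were balanced with RAB3B and RAB6B, RAB8A was at 47.0% with RAB8B, and RAB1A at 75.02% with RAB1B. The RefSeq mRNAs of RAB1A and RAB1B both lack untranslated regions, so this share depends on lengths not known here. RAB3C, which has no name in the deposited table, was not part of the RAB3 share. Its value in NC was 213 ± 103 (SD, n = 3), not divided by length.

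The share of RAB2A in RAB2A and RAB2B was 63.8%, 60.6% and 65.9% in NC and 70.3%, 66.6% and 68.9% in KD. The groups did not overlap, and the KD mean was 5.17 percentage points higher (63.5% ± 2.65 against 68.6% ± 1.87, SD, n = 3; exact two-sided permutation p = 0.1, Benjamini-Hochberg adjusted p = 0.8 over 8 pairs). RAB2B itself was 627 ± 19.3 in NC and 649 ± 71.4 in KD. The other 7 pairs overlapped between the groups, with exact permutation p from 0.3 to 0.9 and an adjusted p of 0.9 each, and shifts from −4.42 points for RAB8A to 2.14 for RAB6A. Leaving out 1 library moved the shift of RAB8A to between −7.88 points (without NC replicate 2) and −1.48 (without KD replicate 1). RAB8A overlaps HSH2D on the same strand, and RAB2B and RAB5A overlap TOX4 and PP2D1 on the opposite strand. The part of these overlaps in the shares was not tested.

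**Figure D4:**
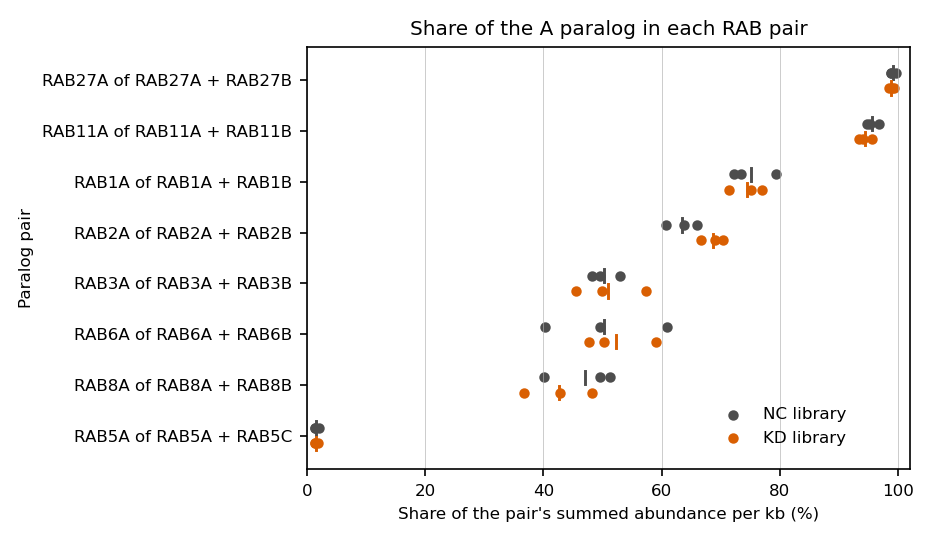
Share of the A paralog in the summed abundance per kb of each of 8 RAB pairs (x axis, percent), for the 3 NC libraries (grey) and 3 KD libraries (orange), with a tick at each mean. RAB2A is at 63.5% in NC and 68.6% in KD without overlap, and the points of the other pairs overlap between the groups.

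The proteins that switch, carry and read RABs were followed as 4 lists of 142 genes, of which 128 were found by name and 108 tested. None was called at an adjusted p below 0.05, and 5 (4.63%) had an unadjusted p below 0.05, beside 4.61% of all genes. Their median log2 fold change was 0.03, with 68 above 0 and 40 below.

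Of the 7 tested genes of prenylation and the GDI cycle, GDI2 was the highest at 3741 per kb in NC, and CHM, the RAB escort protein, was at 90.9. RABGGTA, the alpha subunit of the enzyme that attaches the lipids, was 81.3, 57.0 and 88.2 in NC and 128, 89.8 and 98.8 in KD (log2 fold change 0.49, SE 0.23, limma adjusted p = 0.997).

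Of the 36 tested GEFs, DENND5A, MADD and DENND4C were the highest at 1139, 744 and 637 per kb. RIN2, a GEF of the RAB5 subfamily, was 829, 651 and 840 in NC and 390, 391 and 623 in KD. All KD values were below the NC values, with a log2 fold change of −0.75 (SE 0.16, limma adjusted p = 0.133). RIN2 passed the test without the filter on low values (limma adjusted p = 0.0463) and without KD replicate 3 (0.00303). With any other library left out, no gene of the 4 lists was called, at a lowest limma adjusted p of 0.110 to 0.598. The lowest was 0.256 after quantile normalization and 0.427 without the variance trend.

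Of the 33 tested GAPs, 26 had a log2 fold change above 0 and 7 below, beside 6064 above and 5922 below over all genes. Their median was 0.04, inside the interquartile range of all genes (−0.12 to 0.12), and the split was not tested. RABGAP1, TBC1D14 and TBC1D15 were the highest at 1284, 629 and 473 per kb. TBC1D30 was 479, 451 and 494 in NC and 358, 360 and 291 in KD (log2 fold change −0.50, SE 0.13, limma adjusted p = 0.321). Of the 32 tested effectors, SYTL3, PLEKHM1 and OCRL were the highest at 981, 650 and 646 per kb. SYTL4, an effector of RAB27 in secretion, was 1700, 1489 and 1377 in NC and 1165, 1115 and 1308 in KD (−0.35, SE 0.11, limma adjusted p = 0.632), while RAB27A was 1522 ± 87.4 and 1488 ± 104.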

How the data were processed

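Messenger RNA of 3 NC and 3 KD libraries was sequenced. The authors assigned reads to Sscrofa11.1 transcripts with Salmon 0.14.1 and used DESeq2, and deposited a single table with a normalized signal for each Ensembl identifier, already scaled between libraries. The scaling is not given in the sources used here. From 66.3% to 76.2% of the low values were whole multiples of a step per library, so whole reads were not recovered, no count test was run, and depths and reads are estimates. The spike-in mRNAs were not used here, so total mRNA per embryo was not assessed.

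The test was limma (3.58.1, under R 4.3.3) applied to log2(value + 1) of all genes averaging 10 or more, using a variance trend and Benjamini-Hochberg adjustment. A fold change on this scale understates that of low genes. The fit was tested on simulated data. Exact permutation tests used scipy 1.17.1, with Python 3.11.15, numpy 2.4.6, pandas 2.3.3, pysam 0.24.0 and matplotlib 3.10.9. Positions, lengths and sequences come from RefSeq (Sscrofa11.1), in which all 53 members were matched by symbol. Of their identifiers, 6 were not listed in the reference name table and 1 was named otherwise.

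The members and lists were chosen with earlier results of these data known. Named members were the 10 highest per length, the 5 highest and 5 lowest log2 fold changes, those with an unadjusted p below 0.05, and paralogs whose share is given. RAB29, RAB7A and RAB23 were added once their values had been seen. For each regulator list the 3 highest and the lowest unadjusted p were named, except 1 gene that is not reported here. Alternatives tried were a pseudocount of 0.1 or 10, testing without the filter or with a mean of at least 100, a TMM-like rescaling, quantile normalization, no variance trend, a replicate block, other lengths, and leaving out each library.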

Additional observations from a re-analysis of the deposited data

How the results depend on the processing

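No RAB member was called at an adjusted p below 0.05 under any of the 14 alternatives of the limma fit, and members with an unadjusted p below 0.05 numbered 3 to 5. RAB38 joined without the filter, RAB24 was not tested at a mean of at least 100, RAB11A was lost without the variance trend and without NC replicate 1, where RAB14 joined. Over all genes, 19 were called, 0 without the variance trend (622 at an unadjusted p below 0.05), and 11 to 19 on leaving out a library (12 without NC replicate 2 or 3, 11 without KD replicate 2). SIN3A kept its log2 fold change of −3.81 without the trend, at an adjusted p of 0.423. Of the regulators, 1 (RIN2) was called without the filter and with the replicate block (adjusted p 0.0463 and 0.00502), and 0 to 1 on leaving out a library (1 without KD replicate 3).

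The share of the 5 highest members was 57.4% with median lengths, 50.3% without division by length and 50.1% without members lacking untranslated regions. Among these 5, RAB28 replaced RAB22A with median lengths, and RAB21 replaced RAB1A without division by length. With single libraries left out, log2 fold changes spanned −0.000498 to 0.125 for RAB5C, −0.106 to 0.146 for RAB1A, −0.0551 to 0.0197 for RAB35, −0.0192 to 0.632 for RAB27B, −0.00307 to 0.284 for RAB11B and −0.0234 to 0.325 for RAB14. Without a change of sign they spanned −0.717 to −0.233 for RAB26, −0.349 to −0.0841 for RAB30, 0.0501 to 0.146 for RAB22A, −0.170 to −0.0465 for RAB21 and 0.00885 to 0.159 for RAB1B. Of 234 comparisons of named members, 225 kept their direction and side of the threshold and 9 changed sign. The shift of the paralog share ranged from −1.92 to 1.65 points for RAB1A, −2.62 to 3.36 for RAB3A, −0.186 to 0.202 for RAB5A and −2.87 to 7.44 for RAB6A.

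Samples with the same replicate number correlated at 0.109, 0.111 and 0.0872 in their deviations, so the numbers were not taken to pair them, although 6 of 6 libraries correlated best with their own number, as a hint from the data. With the replicate block, 26 genes and 0 members were called, and the lowest adjusted p of a member was 0.252 (RAB2A). Low depth limits RAB24, RAB26, RAB27B and the 15 untested members.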

Other observations

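Some identifiers without a name in the deposited table are named as RAB genes in the reference name table, and they were named here after their values were seen. RAB4B was 162 ± 14.9 in NC and 168 ± 18.1 in KD (SD, n = 3; log2 fold change 0.05). RAB3C was 213 ± 103 and 179 ± 62.0 (−0.18), RAB40C was 414 ± 21.3 and 436 ± 63.5 (0.07), and RAB13 was 25.8 ± 2.77 and 27.0 ± 8.03 (0.03). The limma adjusted p was 0.997 for each, and the groups overlapped. RABL3, a RAB-like gene outside the name rule, was 151 ± 12.9 in NC and 151 ± 12.0 in KD.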
